A study of Mus musculus with 12 samples.

Results

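The comparison described here is the effect of a steatohepatitis-inducing diet on the mouse liver after 6 weeks, the last of 3 sampling times. Its members were chosen by sample title: the 2 arrays titled as steatohepatitis liver at 6 weeks and the 2 arrays titled as control liver at 6 weeks, 4 of the 12 arrays of the series. All mice were male C57BL/6NJcl, an inbred strain, and were 12 weeks old at 6 weeks of diet. The treated group had been fed CDAHFD, a choline-deficient, L-amino acid-defined diet with 60 kcal% fat and 0.1% methionine, and the control group the standard chow CE-2. The chow differs from CDAHFD in more than choline, fat and methionine, so the comparison is between whole diets, and no pair-fed or choline-supplemented group was used here. The other 8 arrays hold the same diets after 1 and 2 weeks, at 7 and 8 weeks of age, with 2 arrays a group. Total liver RNA (150 ng) was labelled with Cy3 and hybridised to Agilent arrays of one colour. The labels number 2 replicates a group and do not say whether these came from separate mice, so the p-values measure only the spread between these arrays.

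Choline is needed to make phosphatidylcholine, the phospholipid that coats very-low-density lipoprotein, and a liver short of choline and methionine retains triglyceride. In this model fat accumulation is followed by hepatocyte injury, recruitment of monocyte-derived macrophages and activation of hepatic stellate cells, which deposit fibrillar collagen. No histology was used here, and the labels call the group only by its diet and disease name. A bulk sample holds all liver cells together, and fewer cells of a type and less RNA per cell cannot be told apart in it.

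The 4 arrays of 6 weeks had between 43.5% and 46.96% of their spots well above background, with the CDAHFD arrays at the upper end (46.96% and 46.86%, against 43.99% and 43.5% in the controls), and no gene spot was saturated. The 6-week arrays lay together on a slide of their own, and the arrays of 1 and 2 weeks lay on another, so each diet comparison lay within a slide while slide and week cannot be told apart. The 2 control arrays of 1 week differed from each other more than the pair of any other group (SD over genes of the difference between the 2 arrays 0.85, against 0.29 to 0.49 in the other 5 groups). At 6 weeks they enter the estimate of spread, and also the choice of scaling probes, the filter and the choice of each gene's probe. With the 1-week arrays left out of the fit alone, 5443 genes were called at 6 weeks.

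Intensities are given as log2 values relative to each array's 75th percentile over probes above background on all arrays, so that 0 is a bright probe. A difference is CDAHFD minus control on the log2 scale relative to the median gene, whose own difference was 0.03, with its standard error from limma. The test is of the difference before that median was subtracted, and a gene is called when its Benjamini-Hochberg adjusted p is under 0.05. After 6 weeks, 3404 of 13898 measured genes were higher on CDAHFD (24.5%) and 2253 were lower (16.2%), so that 40.7% of genes were called. Of these, 2098 were at least 2-fold higher and 668 at least 2-fold lower. Scaling to the 75th percentile of all probes, which put the median gene at -0.20, turned this balance to 2606 higher and 4235 lower, so the split between directions depends on the scaling. No called gene had overlapping groups. Both CDAHFD arrays lay above both controls for 38.4% of all genes and below both for 32.7%. Calls of higher genes were concentrated among dim probes and calls of lower genes among bright ones: in the dimmest of 4 equal bins of genes 1152 were higher and 283 lower, with a median difference of 0.35, and in the brightest bin 434 were higher and 1032 lower, with a median of -0.20. Of all genes, 738 were above background on both CDAHFD arrays and neither control, and could be called only higher, against 94 with the reverse pattern. Over genes above background on all arrays, 2453 were higher and 2127 lower (53.6% of calls higher).

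**Figure D1:**
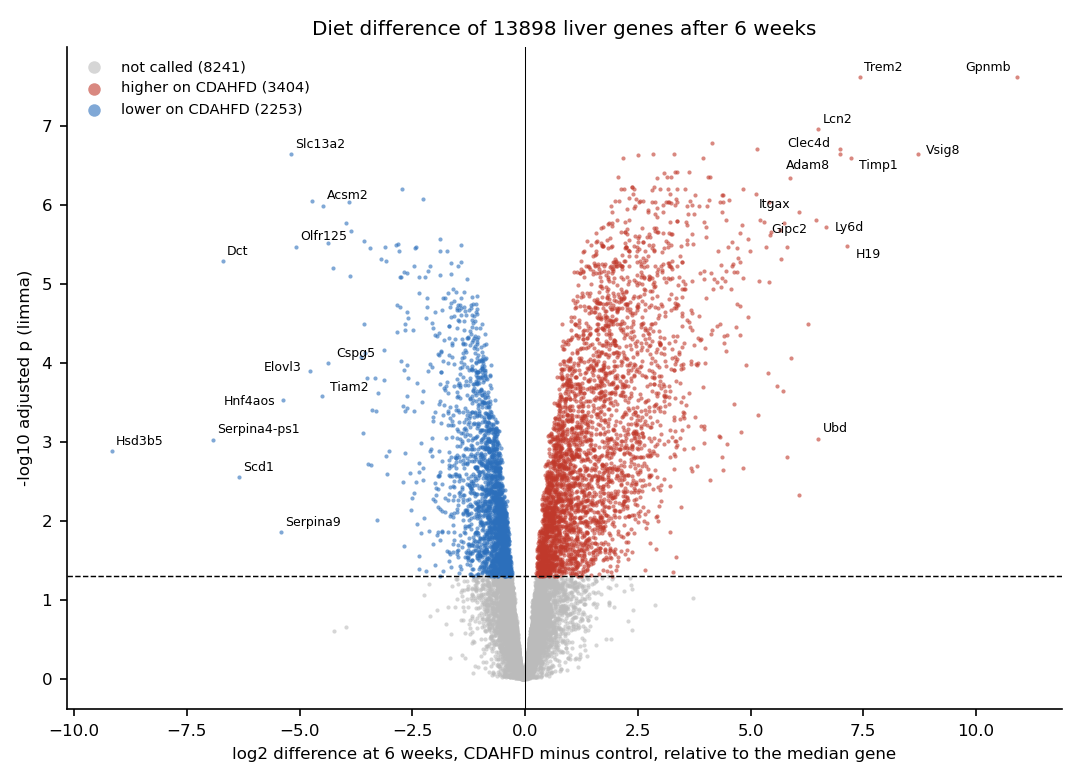
Each point is 1 of 13898 genes, with the log2 difference between CDAHFD and control liver after 6 weeks on the horizontal axis and -log10 of the limma adjusted p on the vertical axis; the dashed line marks the threshold of 0.05. Red points (3404) are called higher, blue points (2253) called lower, and the 12 largest of each direction, unnamed clones left aside, are named, from Gpnmb at a fitted 10.90 to Hsd3b5 at a fitted -9.17; points of genes below background in a group are fitted values, not measured sizes.

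The 12 called genes with the largest rise, unnamed clones left aside, were led by products of lipid-laden macrophages. Gpnmb, a transmembrane glycoprotein of such macrophages, was measured at -9.07 and -9.0 on the control arrays and 2.13 and 1.68 on the CDAHFD arrays. It was not well above background in either control, so its rise was at least 405-fold (fitted difference 10.90 ± 0.30, adjusted p = 2.41e-08). Trem2, a lipid-sensing receptor of the same cells, was above background on all 4 arrays, at -5.16 and -5.79 on the control arrays and 2.02 and 1.95 on the CDAHFD arrays (7.43 ± 0.21, adjusted p = 2.41e-08). The 2 diets were far apart for both genes, with a gap several times that between arrays of the same diet. Clec4d, a C-type lectin of myeloid cells, rose at least 99.1-fold, Adam8, a leukocyte metalloprotease, by 6.99 ± 0.27, and Itgax, the integrin chain CD11c, by 6.08 ± 0.34. Outside the macrophage genes, Timp1, the inhibitor of matrix metalloproteinases, rose at least 36.9-fold from -8.82 and -8.82 in the controls to -1.74 and -1.37. H19, an imprinted RNA of the fetal liver, rose at least 74.2-fold, with the CDAHFD arrays at 0.24 and -1.34. Lcn2, a siderophore-binding acute phase protein, rose by 6.50 ± 0.21, and Ubd, a ubiquitin-like protein induced by cytokines, by 6.50 ± 0.85 with the wider spread of -6.12 and -4.93 between the controls. Ly6d, a small membrane-anchored surface protein, rose by 6.68 ± 0.36, Vsig8, an immunoglobulin-domain surface protein, at least 93.2-fold and Gipc2, a PDZ-domain adaptor, at least 21-fold.

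The 12 largest falls included enzymes and transporters of hepatocyte metabolism. Hsd3b5, a male-specific hydroxysteroid dehydrogenase of the liver, stood at 3.64 and 3.88 on the control arrays and -7.42 and -3.32 on the CDAHFD arrays (-9.17 ± 1.18, adjusted p = 0.0013). The first CDAHFD array was not above background and lay far below the second, so the size of this fall differs between the 2 arrays. Scd1, which makes monounsaturated fatty acids, was at 4.70 and 4.33 on the control arrays and -3.43 and -0.16 on the CDAHFD arrays (-6.35 ± 0.98, adjusted p = 0.00281), again with both CDAHFD arrays below both controls and well apart from each other. Dct, best known as a pigment enzyme, fell from 1.12 and 1.35 to -5.17 and -5.70 (-6.70 ± 0.40), with the arrays of each diet close. The fatty acid elongase Elovl3 (-4.77 ± 0.46), the dicarboxylate transporter Slc13a2 (-5.20 ± 0.21) and the Rac exchange factor Tiam2 (-4.51 ± 0.52) fell as well. Acsm2, named for the medium-chain acyl-CoA synthetases, Olfr125, listed as an olfactory receptor gene, and Cspg5, a proteoglycan, were not above background on either CDAHFD array and were at least 5.06-fold, 8.4-fold and 8.81-fold lower. The serpin Serpina9 (-5.42 ± 1.23), above background on 1 of the 2 CDAHFD arrays, the pseudogene Serpina4-ps1 (-6.93 ± 0.85) and Hnf4aos, a noncoding RNA opposite Hnf4a (-5.36 ± 0.59), completed the 12. The serpin genes have near-identical relatives, so which copy these probes read is uncertain.

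Genes were grouped into 61 lists, 40 of pathways and 21 of cell type markers, which held 1307 measured symbols. Some genes, among them Thy1, Itgax, Irf8 and Spp1, stand in several lists, so lists that share members are not separate readings. For each list the members called in each direction are counted beside the 24.5% higher and 16.2% lower of all genes, and the list's median stands beside a median of 0.0 over all genes by construction. Members that were above background only on the CDAHFD arrays could enter only as higher, and their number is given where it is 3 or more. For those lists, the median after such members were set at their lower bound is added where it differs.

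**Figure D2:**
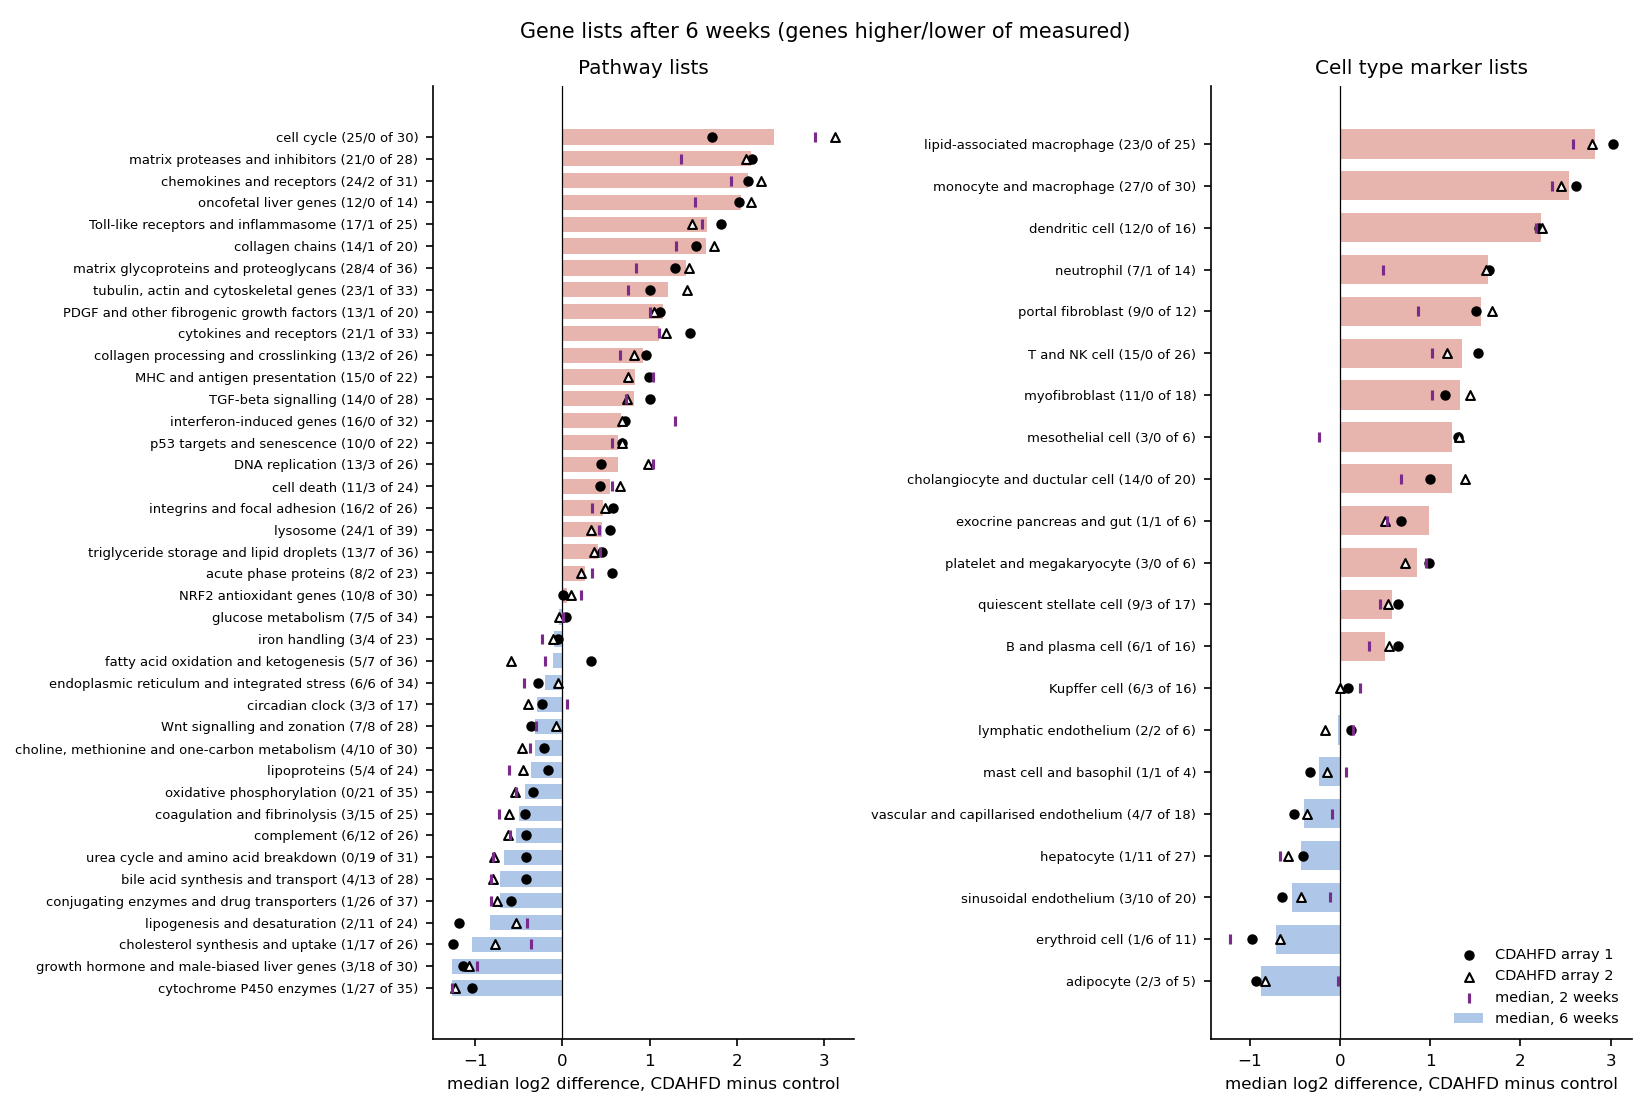
Bars are the median log2 difference between CDAHFD and control liver after 6 weeks over the measured genes of each list (red above 0, blue below 0), for 40 pathway lists on the left and 21 cell type lists on the right; black dots and open triangles are the medians of CDAHFD arrays 1 and 2 against the mean of the controls, and purple ticks the median at 2 weeks. The numbers beside each name are genes called higher, called lower and measured; lipid-associated macrophage genes lie highest (2.83) and cytochrome P450 genes lowest (-1.27), and the 2 arrays stand apart most for cell cycle and fatty acid oxidation.

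Macrophage genes were the most uniformly raised of the cell type lists. Of 25 measured genes of lipid-associated macrophages, 23 were higher and none lower (median 2.83, 3 above background on CDAHFD only, median at the bounds 2.83). Spp1, which encodes the secreted phosphoprotein osteopontin, was at -2.59 and -2.53 on the control arrays and 0.23 and 0.27 on the CDAHFD arrays (2.77 ± 0.24, adjusted p = 1.24e-05). Both CDAHFD arrays read nearly the same value and lay far above both controls. Capg, an actin-capping protein, rose by 4.15 ± 0.15, the tetraspanin Cd63 by 3.95 ± 0.17 and the membrane protein Ms4a7 by 4.36 ± 0.26. Among monocyte and macrophage genes 27 of 30 were higher and none lower (median 2.54; 6 above background on CDAHFD only). The lysosomal glycoprotein Cd68 rose by 3.23 ± 0.18, the signalling chain Fcer1g by 2.73 ± 0.16, and Adgre1, a surface receptor shared by resident and recruited macrophages, by 1.49 ± 0.39. Cx3cr1, the fractalkine receptor, was not above background in the controls and rose at least 36-fold.

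Genes of the resident Kupffer cell did not move in a common direction. Of 16 measured, 6 were higher and 3 lower, with a median of 0.01. Clec4f, a lectin restricted to Kupffer cells, stood at 1.12 and 1.14 on the control arrays and 1.33 and 1.22 on the CDAHFD arrays and was not called (0.11 ± 0.24, adjusted p = 0.682). The complement receptor Vsig4 was also not called (0.57 ± 0.25, adjusted p = 0.0801), nor was Timd4, a receptor of long-resident Kupffer cells, although both of its CDAHFD values (-5.79 and -6.81) lay below both controls (-4.28 and -3.93; -2.24 ± 0.89, adjusted p = 0.0861). Cd163, a haemoglobin scavenger receptor, fell from -6.71 and -6.28 to -9.06 and -9.24, where it was not above background, a fall of at least 1.45-fold (adjusted p = 0.000123; above background on 1 of the 2 controls). Spic, a transcription factor of iron-recycling macrophages, rose by 1.67 ± 0.25, Il18bp, a decoy receptor for interleukin-18, by 1.35 ± 0.22 and the complement regulator Cfp by 1.04 ± 0.19.

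Other leukocyte lists rose to different extents. Of 16 dendritic cell genes 12 were higher and none lower (median 2.23). The receptor Clec9a of cross-presenting dendritic cells was at -5.59 and -5.97 on the control arrays and -3.28 and -3.45 on the CDAHFD arrays (2.38 ± 0.24), and Wdfy4, needed for cross-presentation, rose by 2.41 ± 0.14. Of 26 T and NK cell genes 15 were higher and none lower (median 1.35; 7 above background on CDAHFD only, median at the bounds 1.1). The members that moved did not include the T-cell receptor chain Cd3e, at -3.35 and -3.52 on the control arrays and -3.0 and -3.43 on the CDAHFD arrays (0.19 ± 0.21, adjusted p = 0.429), whose groups overlapped. The interleukin-7 receptor Il7r rose at least 16.6-fold, the chemokine Ccl5 by 3.0 ± 0.39 and the cytotoxic granule gene Nkg7 by 0.43 ± 0.17 (adjusted p = 0.0456). Of 16 B and plasma cell genes 6 were higher and 1 lower (median 0.50; 3 above background on CDAHFD only). The adaptor Blnk rose (4.50 ± 0.29), while the B-cell antigen Ms4a1 (0.43 ± 0.37, adjusted p = 0.351) and the immunoglobulin joining chain Jchain (0.34 ± 0.68, adjusted p = 0.693) were not called.

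The neutrophil list was split. Of its 14 measured genes 7 were higher and 1 lower; 4 of the 14 were above background on CDAHFD only, and the median of 1.64 became 0.54 at their bounds and -0.28 over genes above background on every array. The calgranulins S100a8 (2.96 ± 0.29) and S100a9 (2.86 ± 0.33) rose, and Lcn2 as given above, all of which other cells can make. At low signal, Retnlg read -8.12 and -7.96 on the control arrays and -6.14 and -5.68 on the CDAHFD arrays. The granulocyte enzyme Mpo, not above background in the controls, rose at least 1.56-fold. Ly6g, the defining surface antigen of mouse neutrophils, stood at -3.91 and -3.68 on the control arrays and -4.13 and -4.21 on the CDAHFD arrays, with both CDAHFD values just below both controls and no call (-0.41 ± 0.21, adjusted p = 0.172), and the granule peptide Camp was lower (-1.61 ± 0.24). Erythroid genes were lower in 6 of 11 cases and higher in 1 (median -0.71), with the haem synthesis enzyme Alas2 at 2.49 and 2.40 on the control arrays and 0.64 and 0.97 on the CDAHFD arrays (-1.67 ± 0.16). The globin copies Hba-a1, Hba-a2, Hbb-b1 and Hbb-bt fell by between 0.81 and 1.17 on the log2 scale and share sequence, so they are not independent readings. Of 6 platelet genes 3 were higher (median 0.85), among them Pf4, a chemokine that macrophages also make (2.59 ± 0.17), but not Ppbp (0.05 ± 0.38, adjusted p = 0.888). Treml1 read -6.79 and -6.89 on the control arrays and -3.79 and -3.65 on the CDAHFD arrays. Clec1b read -1.64 and -1.40 on the control arrays and -0.27 and -0.46 on the CDAHFD arrays. Of 4 mast cell and basophil genes the histidine decarboxylase Hdc rose (1.04 ± 0.20) and the tryptase Tpsb2 fell (-1.30 ± 0.39); the list median of -0.24 became 0.44 over genes above background on every array.

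Inflammatory signalling genes rose with the macrophage genes, whose part in these lists was not tested. Of 31 chemokines and receptors 24 were higher and 2 lower (median 2.12; 9 above background on CDAHFD only, median at the bounds 1.74). Ccl2, the main ligand that draws monocytes, was at -3.76 and -3.93 on the control arrays and 0.0 and -0.04 on the CDAHFD arrays (3.79 ± 0.41, adjusted p = 0.000104), and its receptor Ccr2 rose at least 8-fold. Ccl3 rose at least 10.3-fold and Cxcl14 by 2.72 ± 0.16. Cxcl10, a ligand induced by interferon, rose by 1.62 ± 0.32. Of 33 cytokines and receptors 21 were higher and 1 lower (median 1.11; 7 above background on CDAHFD only, median at the bounds 0.70). Tnf, a central inflammatory cytokine, rose at least 2.5-fold. Il1b, in contrast, read -3.79 and -3.76 on the control arrays and -3.84 and -3.76 on the CDAHFD arrays, and the groups overlapped (-0.06 ± 0.22, adjusted p = 0.941). The receptor chains Csf2ra (3.36 ± 0.18), Tnfrsf12a (2.22 ± 0.16), Ifngr1 (1.09 ± 0.09) and Il10rb (1.63 ± 0.14) all rose. Of 25 Toll-like receptor and inflammasome genes 17 were higher and 1 lower (median 1.65; 6 above background on CDAHFD only, median at the bounds 0.92). The lipopeptide receptor Tlr2 was at -4.01 and -3.67 on the control arrays and -1.23 and -1.09 on the CDAHFD arrays (2.65 ± 0.21), the endotoxin receptor Tlr4 rose by 1.60 ± 0.25 and the inflammasome adaptor Pycard by 2.44 ± 0.14.

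Interferon-induced genes were raised less evenly. Of 32 measured, 16 were higher and none lower (median 0.67). The antiviral synthetases Oas1a (2.04 ± 0.24), Oas2 (2.26 ± 0.21) and Oasl2 (1.76 ± 0.26) and the myeloid factor Irf8 (2.23 ± 0.20) rose, whereas Isg15 (0.67 ± 0.26, adjusted p = 0.0568) and Ifit1 (0.40 ± 0.21, adjusted p = 0.126) did not pass the threshold. Of 22 antigen presentation genes 15 were higher and none lower (median 0.83). The class II chain H2-Aa was at -2.86 and -1.75 on the control arrays and -0.12 and -0.42 on the CDAHFD arrays (2.0 ± 0.45, adjusted p = 0.00731), with the controls further apart than the CDAHFD arrays. The invariant chain Cd74 rose by 2.26 ± 0.26, the cathepsin Ctss by 3.11 ± 0.28 and the costimulatory ligand Cd80 by 1.60 ± 0.17. Class II chains share sequence with their relatives, so the split between copies is uncertain.

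Genes of the fibrillar matrix and of its processing were mostly higher. Of 20 measured collagen chains 14 were higher and 1 lower (median 1.65). Col1a1, a chain of type I collagen, the main fibril of liver scar, was at -3.81 and -3.39 on the control arrays and 0.37 and 0.53 on the CDAHFD arrays (4.01 ± 0.25, adjusted p = 1.9e-06). The partner chain Col1a2 was at -1.0 and -0.79 on the control arrays and 2.35 and 2.68 on the CDAHFD arrays (3.37 ± 0.20), and Col3a1 of type III collagen at -1.75 and -1.54 on the control arrays and 1.66 and 2.06 on the CDAHFD arrays (3.47 ± 0.25). For these 3 chains the gap between diets was at least 7 times that between the CDAHFD arrays. The microfibrillar chains Col6a1 and Col6a3 rose by 2.49 ± 0.18 and 3.26 ± 0.24, the basement membrane chain Col4a1 by 1.95 ± 0.15 and Col16a1 by 1.85 ± 0.17. Of 26 genes that fold, trim and crosslink collagen 13 were higher and 2 lower (median 0.92). The collagen chaperone Serpinh1 rose by 2.31 ± 0.19, the propeptidases Adamts2 and Adamts14 by 1.87 ± 0.13 and 1.88 ± 0.18, and the crosslinking oxidases Loxl1 and Loxl2 by 2.92 ± 0.24 and 2.31 ± 0.13. Lox, the founding member of that family, was not well above background on any of the 4 arrays.

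Among matrix proteases and their inhibitors 21 of 28 were higher and none lower (median 2.16; 9 above background on CDAHFD only, median at the bounds 1.69). The inhibitor Timp2 was at -0.54 and -0.38 on the control arrays and 1.65 and 1.58 on the CDAHFD arrays (2.04 ± 0.13, adjusted p = 1.57e-06). The gelatinase Mmp2 rose at least 11-fold, and Mmp13, the main interstitial collagenase of rodents, at least 5.6-fold. The cathepsin Ctsk, which cleaves collagen in lysosomes, rose by 3.66 ± 0.20 and Mmp23 by 2.73 ± 0.21. Genes that build collagen, genes that cleave it and genes that inhibit its cleavage were thus all among those that rose. Of 36 matrix glycoproteins and proteoglycans 28 were higher and 4 lower (median 1.41; 3 above background on CDAHFD only). The small proteoglycan Lum, which binds collagen fibrils, was at -2.12 and -2.13 on the control arrays and 0.86 and 1.03 on the CDAHFD arrays (3.04 ± 0.22), its relative Dcn rose by 1.42 ± 0.12, the matricellular protein Sparc by 1.24 ± 0.10, the laminin chain Lama2 by 2.13 ± 0.18 and the basement membrane linker Nid1 by 2.07 ± 0.20. Fibronectin, Fn1, which hepatocytes also secrete into plasma, went the other way, at 4.50 and 4.43 on the control arrays and 4.27 and 3.84 on the CDAHFD arrays (-0.45 ± 0.15, adjusted p = 0.0497), and was not called without the 1-week arrays.

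Genes of fibrogenic signalling rose among ligands and receptors. Of 28 TGF-beta pathway genes 14 were higher and none lower (median 0.81). The ligand Tgfb1 was at -5.15 and -5.10 on the control arrays and -3.46 and -3.47 on the CDAHFD arrays (1.62 ± 0.18, adjusted p = 4.28e-05), and the proteins that hold the latent ligand, Ltbp2 (3.05 ± 0.24), Ltbp3 (2.44 ± 0.17) and Nrros (2.14 ± 0.16), rose with it, as did the induced matrix protein Tgfbi (1.70 ± 0.12). The receptor Tgfbr2 (0.36 ± 0.18, adjusted p = 0.101) and the feedback inhibitor Smad7 (-0.36 ± 0.35, adjusted p = 0.499) were not called. Of 20 PDGF and other growth factor genes 13 were higher and 1 lower (median 1.15; 3 above background on CDAHFD only). The stellate cell receptor Pdgfrb was at -3.37 and -3.55 on the control arrays and -1.58 and -1.39 on the CDAHFD arrays (1.94 ± 0.19), Pdgfra rose by 2.16 ± 0.18, and the ligands Pdgfb and Pdgfa by 2.89 ± 0.18 and 1.51 ± 0.19. Of 26 integrin and adhesion genes 16 were higher and 2 lower (median 0.47). The hyaluronan receptor Cd44 rose by 2.61 ± 0.15 and the actin crosslinker Flna by 2.42 ± 0.12, and the integrin chains Itgav and Itgb1 by 0.94 ± 0.17 and 0.50 ± 0.14.

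Markers of the mesenchymal cells were more often higher than lower. Some of them, among them Col1a1, Timp1, Fbln2 and Dcn, are also counted in the matrix lists above, so these lists are not separate readings. Of 18 myofibroblast genes 11 were higher and none lower (median 1.33, 4 above background on CDAHFD only, median at the bounds 1.31). Acta2, the smooth muscle actin of activated stellate cells, was at -3.87 and -3.27 on the control arrays and -1.86 and -1.46 on the CDAHFD arrays (1.87 ± 0.41, adjusted p = 0.00582), and the contractile protein Tagln rose by 1.76 ± 0.19. Of 17 genes of quiescent stellate cells 9 were higher and 3 lower (median 0.57). Lrat, which stores vitamin A in these cells, was at -3.19 and -3.28 on the control arrays and -2.15 and -2.44 on the CDAHFD arrays and thus also rose (0.90 ± 0.18, adjusted p = 0.00182), as did the transcription factors Tcf21 (2.01 ± 0.19) and Hand2 (1.30 ± 0.14); Reln (0.51 ± 0.60, adjusted p = 0.506) and Rgs5 (0.52 ± 0.21, adjusted p = 0.0628) were not called. Of 12 portal fibroblast genes 9 were higher and none lower (median 1.56). The surface protein Thy1 was at -4.19 and -4.24 on the control arrays and -2.70 and -2.81 on the CDAHFD arrays (1.42 ± 0.14), the ectonucleotidase Entpd2 rose by 1.29 ± 0.14, the actin-severing protein Gsn by 1.79 ± 0.18 and the matrix protein Dpt by 2.28 ± 0.31. The list also holds Elane, the neutrophil elastase, which was not called (-0.33 ± 0.15, adjusted p = 0.151).

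Sinusoidal endothelial markers were lower more often than higher. Of 20 sinusoidal endothelial genes 10 were lower and 3 higher (median -0.53). Oit3, a marker of these fenestrated cells, was at -0.60 and -0.59 on the control arrays and -2.04 and -1.88 on the CDAHFD arrays (-1.40 ± 0.16, adjusted p = 8.68e-05). The nuclease Dnase1l3 was at -1.54 and -1.56 on the control arrays and -3.03 and -2.63 on the CDAHFD arrays (-1.31 ± 0.15), and the lectin Clec4g (-0.75 ± 0.14) and the VEGF receptor Kdr (-0.94 ± 0.15) fell. The scavenger receptor Stab2 was not called (-0.20 ± 0.12, adjusted p = 0.335), and the hyaluronan receptor Lyve1 rose (1.01 ± 0.28). Of 18 genes of other vascular endothelium 7 were lower and 4 higher (median -0.40). The adhesion molecule Vcam1 (3.26 ± 0.26), Cd34 (2.15 ± 0.22) and the diaphragm protein Plvap (1.25 ± 0.12), all associated with activated or capillarised endothelium, rose, whereas the tight junction protein Cldn5 (-1.09 ± 0.13) and Pecam1 (-0.68 ± 0.22, adjusted p = 0.0372) fell. Vcam1 and Cd34 are also made by fibroblasts and leukocytes, and their source was not tested. Of 6 lymphatic genes 2 were higher and 2 lower (median -0.02), with the podoplanin gene Pdpn at 1.31 ± 0.26 and the transcription factor Prox1, also a hepatocyte gene, at -1.01 ± 0.30.

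Biliary and mesothelial markers were higher or not called. Of 20 cholangiocyte and ductular genes 14 were higher and none lower (median 1.24). Epcam, an adhesion molecule of ductular cells, was at -6.07 and -6.19 on the control arrays and -5.10 and -4.46 on the CDAHFD arrays (1.31 ± 0.30, adjusted p = 0.00483). The keratins that define bile ducts, Krt19 (1.15 ± 0.54, adjusted p = 0.108) and Krt7 (0.73 ± 0.42, adjusted p = 0.167), did not pass the threshold, although both CDAHFD values of Krt19 (-3.99 and -3.39) lay above both controls (-5.04 and -4.72), and Krt19 was called without the 1-week arrays (limma adjusted p = 0.00699). The collagen receptor Ddr1 rose by 2.99 ± 0.33 and the membrane protease St14 by 2.10 ± 0.33. Sctr, the secretin receptor of cholangiocytes, was above background only on the CDAHFD arrays of 6 weeks, at least 1.68-fold higher than in the 6-week controls (fitted difference 2.86, but -0.28 without the filter on dim probes). Of 6 mesothelial genes 3 were higher and none lower (median 1.24, 0.82 at the bounds). Msln, mesothelin, was at -5.02 and -4.18 on the control arrays and -2.74 and -2.89 on the CDAHFD arrays (1.75 ± 0.29, adjusted p = 0.00079), and the transcription factor Wt1 rose by 2.58 ± 0.27, while Upk3b was not called (0.52 ± 0.36, adjusted p = 0.242). The 2 controls differed from each other by a median of 1.02 over this list, nearly as much as the diets.

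Genes of the fetal liver and of liver tumours were raised as well. Of 14 measured, 12 were higher and none lower (median 2.04, 3 above background on CDAHFD only, median at the bounds 1.87). Afp, the fetal counterpart of albumin, was at -4.39 and -3.92 on the control arrays and -2.42 and -1.46 on the CDAHFD arrays (2.18 ± 0.30, adjusted p = 0.000265). The aldo-keto reductase Akr1b8 rose by 1.83 ± 0.17, the RNA-binding protein Igf2bp2 at least 5.43-fold, and the proteoglycan Gpc3 by 1.33 ± 0.40 (adjusted p = 0.0187). Among cytoskeletal genes 23 of 33 were higher and 1 lower (median 1.21). The annexin Anxa2 was at -0.24 and -0.16 on the control arrays and 3.22 and 3.94 on the CDAHFD arrays (3.74 ± 0.22), the calcium-binding proteins S100a4 and S100a6 rose by 4.83 ± 0.25 and 3.23 ± 0.15, the actin-sequestering peptide Tmsb10 by 2.37 ± 0.12 and the tubulin Tubb6 by 2.33 ± 0.21. The beta-actin gene Actb was not called (-0.10 ± 0.13, adjusted p = 0.715; 0.38 after quantile normalization).

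Most hepatocyte identity genes were lower or not called. Of 27 identity genes 11 were lower and 1 higher (median -0.43). Alb, albumin, was at 5.19 and 5.13 on the control arrays and 5.26 and 5.06 on the CDAHFD arrays, with overlapping groups and no call (-0.03 ± 0.18, adjusted p = 0.985). The transthyretin gene Ttr (-0.43 ± 0.19, adjusted p = 0.128) and the nuclear receptor Hnf4a (-0.32 ± 0.11, adjusted p = 0.0551) were not called, and the transcription factors Cebpa (-0.90 ± 0.14) and Nr5a2 (-0.78 ± 0.17) and the receptor subunit Asgr2 (-0.61 ± 0.12) were lower. Bright genes as a whole had a median of -0.20, and the hepatocyte list lay 0.30 below the median of genes of like signal.

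Drug-metabolising enzymes fell broadly. Of 35 cytochrome P450 genes 27 were lower and 1 higher (median -1.27), 1.06 below the median of genes of like signal. Cyp2c38 was at 3.89 and 3.77 on the control arrays and 0.19 and -0.38 on the CDAHFD arrays (-3.96 ± 0.23, adjusted p = 1.69e-06). Cyp2c29 (-1.77 ± 0.16) and Cyp1a2 (-0.96 ± 0.18) also fell, while Cyp2e1, the ethanol-inducible enzyme, was not called (-0.41 ± 0.16, adjusted p = 0.0772). The Cyp2c genes have near-identical copies, so the reading of each is uncertain. Cyp3a11, the main hepatic enzyme for drugs and bile acids in this family, was at 5.03 and 4.81 on the control arrays and 4.27 and 3.89 on the CDAHFD arrays (-0.87 ± 0.17, adjusted p = 0.00284). Of 37 conjugating enzymes and transporters 26 were lower and 1 higher (median -0.72). The carboxylesterase Ces2a was at 5.21 and 5.08 on the control arrays and 1.59 and 0.96 on the CDAHFD arrays (-3.90 ± 0.21), Ugt2b1, a glucuronosyltransferase, fell to -0.54 and -0.38 from 1.82 and 2.07 (-2.44 ± 0.17), and the glutathione transferase Gstp1 was lower (-0.96 ± 0.13). Of 30 genes that depend on growth hormone or are higher in males 18 were lower and 3 higher (median -1.26). Slco1a1, a male-biased organic anion transporter, was at 1.22 and 1.44 on the control arrays and -2.53 and -1.63 on the CDAHFD arrays (-3.45 ± 0.23, adjusted p = 3.5e-06), the growth hormone receptor Ghr at 2.91 and 3.03 on the control arrays and 1.81 and 1.85 on the CDAHFD arrays (-1.17 ± 0.12) and its target Igf1 at -0.78 ± 0.20. The near-identical copies Cyp4a12a and Cyp4a12b, both male-specific, read alike (-3.08 ± 0.22 and -3.19 ± 0.23) and cannot be separated. Mup20, a major urinary protein, was not called (-0.31 ± 0.16, adjusted p = 0.209).

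Cholesterol synthesis was among the lowest pathways. Of 26 genes 17 were lower and 1 higher (median -1.03), with the higher one being Abcg1, a cholesterol exporter that macrophages express (2.15 ± 0.21). The sterol reductase Tm7sf2 was at 3.40 and 3.45 on the control arrays and 1.13 and 1.27 on the CDAHFD arrays (-2.26 ± 0.12, adjusted p = 8.53e-07). The thiolase Acat2 (-1.04 ± 0.11) and the sterol carrier Stard4 (-1.93 ± 0.21) fell as well. Squalene epoxidase, Sqle, was not called (-0.38 ± 0.51, adjusted p = 0.634). Of the 26 genes 22 read higher on CDAHFD array 2 than on array 1.

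Many of these genes held the same letters in their promoters. A promoter here runs from 250 bases before to 50 after a start site, from RefSeq on GRCm38.p6, and 11054 of the 13898 genes had at least 1. CCAAT, on either strand, was in the promoters of 15 of 17 cholesterol genes that had one (88.2%), against 42.5% of all genes tested and 45.3% of all genes called lower, and in 11 of the 13 called lower. TCACNCCAC, the letters searched for a sterol regulatory element, was in 1 of the 17 (5.88%), against 1.42% of all genes tested. A match is a description of letters in this window. The promoters of Tm7sf2 and Insig1, which both fell, are shown, with the CCAAT box in capitals. This box is held by most cholesterol genes that had a promoter, whether called lower or not. It reads ATTGG where it lies on the opposite strand. The first is at chr19:6067801-6068100 on the minus strand and has its match 47 bases before the start; the other, of the sterol sensor gene Insig1, is at chr5:28071162-28071461 on the plus strand, with its match 216 bases before the start.
Tm7sf2: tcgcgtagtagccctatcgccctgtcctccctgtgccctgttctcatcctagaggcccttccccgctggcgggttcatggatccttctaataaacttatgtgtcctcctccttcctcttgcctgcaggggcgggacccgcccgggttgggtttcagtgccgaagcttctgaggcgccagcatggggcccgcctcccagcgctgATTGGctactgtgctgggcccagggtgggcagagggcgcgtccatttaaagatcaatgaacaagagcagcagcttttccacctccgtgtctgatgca
Insig1: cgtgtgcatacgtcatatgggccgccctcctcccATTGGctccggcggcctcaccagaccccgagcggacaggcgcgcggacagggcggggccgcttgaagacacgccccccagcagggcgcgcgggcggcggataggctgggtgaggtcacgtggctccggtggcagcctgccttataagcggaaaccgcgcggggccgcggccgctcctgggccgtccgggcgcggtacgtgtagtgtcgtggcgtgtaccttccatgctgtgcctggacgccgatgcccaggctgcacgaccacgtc

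Fatty acid synthesis and handling split by gene. Of 24 lipogenesis genes 11 were lower and 2 higher (median -0.83). The malic enzyme Me1 was at 2.36 and 1.90 on the control arrays and -0.27 and 0.25 on the CDAHFD arrays (-2.17 ± 0.20), and the acetyl-CoA synthetase Acss2 (-2.03 ± 0.20) and the carboxylase Acacb (-1.39 ± 0.16) fell. Scd2, a desaturase better known outside the liver, rose (1.59 ± 0.19). Fasn, fatty acid synthase, read -2.06 and -1.45 on the control arrays and -4.07 and -1.73 on the CDAHFD arrays and was not called (-1.18 ± 0.73, adjusted p = 0.255). Its CDAHFD arrays were further apart than the diets. Of 36 triglyceride storage genes 13 were higher and 7 lower (median 0.41). The lipid droplet protein Cidec was at -2.83 and -2.88 on the control arrays and 2.26 and 1.33 on the CDAHFD arrays (4.61 ± 0.31), and lipoprotein lipase, Lpl, rose by 3.05 ± 0.20, the fatty acid transporter Cd36 by 2.83 ± 0.24 and the acyltransferase Gpat3 by 2.63 ± 0.22. Plin2, the abundant droplet coat of hepatocytes, was not called (0.44 ± 0.21, adjusted p = 0.0991), nor was Dgat2, which makes triglyceride (-0.31 ± 0.11, adjusted p = 0.0757). Of 24 lipoprotein genes 5 were higher and 4 lower, and their median of -0.36 became 0.0 after quantile normalization. Apoa4 rose to 2.72 and 1.69 from -2.45 and -2.16 (4.48 ± 0.39), while Apob, the core protein of very-low-density lipoprotein, was lower (-0.53 ± 0.17, adjusted p = 0.036), as was Mttp, which loads it with lipid (-0.69 ± 0.13). Of 5 adipocyte genes 2 were higher and 3 lower (median -0.88, 0.46 over genes above background on every array), with the adipsin gene Cfd lower (-3.28 ± 0.79).

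Mitochondrial and nitrogen metabolism were lower by smaller amounts. Of 35 genes of oxidative phosphorylation 21 were lower and none higher (median -0.42), 0.22 below genes of like signal. Ndufb8 of complex I was at 3.85 and 3.68 on the control arrays and 3.21 and 3.01 on the CDAHFD arrays (-0.69 ± 0.12, adjusted p = 0.00162), Cyc1 of complex III was lower (-0.72 ± 0.11) and Atp5a1 of the ATP synthase was not called (-0.34 ± 0.15, adjusted p = 0.119). Of 31 urea cycle and amino acid genes 19 were lower and none higher (median -0.67). Otc, ornithine transcarbamylase, was at 3.35 and 3.32 on the control arrays and 2.30 and 2.30 on the CDAHFD arrays (-1.07 ± 0.09), and Haao of tryptophan breakdown at 4.0 and 3.75 on the control arrays and 2.32 and 2.23 on the CDAHFD arrays (-1.63 ± 0.16); Cps1, the first enzyme of the cycle, was lower too (-0.90 ± 0.21). Of 30 genes of choline, methionine and one-carbon metabolism 10 were lower and 4 higher (median -0.31). Gnmt, which uses up S-adenosylmethionine, was at 5.98 and 5.90 on the control arrays and 4.64 and 3.80 on the CDAHFD arrays (-1.75 ± 0.23), and Mat2a, the extrahepatic form of the enzyme that makes it, was at 1.93 and 1.87 on the control arrays and 3.04 and 3.16 on the CDAHFD arrays (1.17 ± 0.10). The mitochondrial folate enzyme Mthfd1l rose by 3.55 ± 0.31 and Bhmt, which remethylates homocysteine from betaine, was lower (-0.58 ± 0.14). Pemt, which makes phosphatidylcholine by methylation, was not called (-0.14 ± 0.14, adjusted p = 0.581). Of 34 glucose metabolism genes 7 were higher and 5 lower (median -0.04), with the rises in Pkm (2.92 ± 0.14), Hk1 (1.61 ± 0.15), Pfkp (2.01 ± 0.20) and G6pdx (2.86 ± 0.24), the first 3 of them forms prominent outside hepatocytes and the last the entry to the pentose phosphate pathway, and no call for the gluconeogenic enzymes G6pc (-0.68 ± 0.49, adjusted p = 0.338) and Pck1 (0.26 ± 0.13, adjusted p = 0.095).

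Of 28 bile acid genes 13 were lower and 4 higher (median -0.71). Cyp7b1, of the alternative synthesis pathway, was at 3.48 and 3.83 on the control arrays and -0.06 and 0.29 on the CDAHFD arrays (-3.58 ± 0.32), while Cyp7a1, the rate-limiting enzyme of the classical pathway, read -1.25 and -0.87 on the control arrays and -1.30 and -0.25 on the CDAHFD arrays and was not called (0.25 ± 0.41, adjusted p = 0.613). The uptake transporter Slc10a1 (-0.73 ± 0.13), the export pump Abcb11 (-0.98 ± 0.13) and the co-receptor Klb (-1.46 ± 0.14) were lower, and Cyp39a1 was higher (2.25 ± 0.22). Complement and coagulation genes were more often lower than higher. Of 26 complement genes 12 were lower and 6 higher (median -0.53): Masp2 (-1.31 ± 0.13) and C8a (-1.06 ± 0.11), which hepatocytes secrete, were lower, and the myeloid receptor C3ar1 (3.46 ± 0.25) was higher. C3 was not called (-0.47 ± 0.17, adjusted p = 0.0615). Of 25 coagulation genes 15 were lower and 3 higher (median -0.50), with the fibrinogen chain Fga at 2.55 and 2.77 on the control arrays and 1.71 and 1.46 on the CDAHFD arrays (-1.11 ± 0.12), prekallikrein, Klkb1, lower (-1.19 ± 0.11) and thrombomodulin, Thbd, higher (1.57 ± 0.18). Of 23 acute phase genes 8 were higher and 2 lower (median 0.26). Saa1 was at 1.41 and 1.67 on the control arrays and 3.43 and 3.45 on the CDAHFD arrays (1.86 ± 0.36), and Saa3, made mainly outside hepatocytes, rose by 3.13 ± 0.25.

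Stress responses were selective. Of 22 p53 target and senescence genes 10 were higher and none lower (median 0.64). The cell cycle inhibitor Cdkn1a was at -5.33 and -5.58 on the control arrays and -0.51 and -0.96 on the CDAHFD arrays (4.69 ± 0.43, adjusted p = 3.54e-05), and Phlda3, an inhibitor of Akt, rose by 3.62 ± 0.22, while Cdkn2a, another senescence inhibitor, was not called (0.52 ± 0.58, adjusted p = 0.48). Of 24 cell death genes 11 were higher and 3 lower (median 0.54, 3 above background on CDAHFD only, median at the bounds 0.52). The necroptosis kinase Ripk3 was at 1.84 ± 0.30, its substrate Mlkl at 1.47 ± 0.23 and the BH3-only protein Pmaip1 at 2.66 ± 0.26. Of 34 endoplasmic reticulum and integrated stress genes 6 were higher and 6 lower (median -0.20): Atf3 (4.59 ± 0.31), the hormone Fgf21 (5.17 ± 0.64), Gdf15 (1.58 ± 0.30) and Ddit3 (0.80 ± 0.27) were higher, whereas the chaperone Hspa5 (-0.17 ± 0.15, adjusted p = 0.516) and Atf4 (-0.12 ± 0.12, adjusted p = 0.604) were not called. Of 30 NRF2 antioxidant genes 10 were higher and 8 lower (median 0.05). Nqo1 (1.38 ± 0.41), haem oxygenase, Hmox1 (1.78 ± 0.27), and the plasma peroxidase Gpx3 (3.23 ± 0.22) were higher, and Me1 was lowest of the list (-2.17). Gclc read 2.77 and 2.40 on the control arrays and 1.87 and 2.49 on the CDAHFD arrays, so its groups overlapped. Of 23 iron genes 3 were higher and 4 lower (median -0.10), and hepcidin, Hamp, was not called (0.37 ± 0.22, adjusted p = 0.168). Of 39 lysosomal genes 24 were higher and 1 lower (median 0.46), with the protease Ctsd at 2.75 and 2.78 on the control arrays and 4.16 and 4.17 on the CDAHFD arrays (1.36 ± 0.10) and the membrane protein Lamp1 not called (-0.17 ± 0.11, adjusted p = 0.365). Of 28 Wnt and zonation genes 7 were higher and 8 lower (median -0.31). Pericentral Glul was not called (0.11 ± 0.16, adjusted p = 0.515), and periportal Cyp2f2 (-1.11 ± 0.16) and Gls2 (-1.07 ± 0.13) were lower. Rhbg read -0.70 and -0.76 on the control arrays and 0.50 and 0.54 on the CDAHFD arrays. Axin2 read -5.60 and -5.66 on the control arrays and -6.29 and -6.65 on the CDAHFD arrays, and the groups of Lgr5 overlapped. Of 17 clock genes 3 were higher and 3 lower (median -0.29), with Nr1d1 at -1.13 and -1.32 on the control arrays and -4.96 and -3.45 on the CDAHFD arrays (-3.02 ± 0.47) and Per2 at -5.31 and -4.51 on the control arrays and -2.90 and -3.41 on the CDAHFD arrays (1.72 ± 0.37); the labels give no hour of sampling. Of 6 genes of exocrine pancreas and gut, checked as markers of other tissue, 1 was higher and 1 lower, and the median of 0.99 became -0.08 without the filter on dim probes.

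Cell division genes were higher, and of the 61 lists the cell cycle list had the widest median gap between the 2 CDAHFD arrays. Of 30 cell cycle genes 25 were higher and none lower (median 2.43; 9 above background on CDAHFD only, median at the bounds 2.0). The proliferation antigen Mki67 was at -4.33 and -4.35 on the control arrays and -2.14 and -1.0 on the CDAHFD arrays (2.73 ± 0.29, adjusted p = 4.18e-05). The mitotic cyclin Ccnb2 was at -3.13 and -3.45 on the control arrays and -1.56 and -0.86 on the CDAHFD arrays (2.05 ± 0.27, adjusted p = 0.000194), and the spindle proteins Cenpe and Prc1 rose by 2.78 ± 0.34 and 2.99 ± 0.38. Both CDAHFD arrays lay above both controls for these 4 genes, and array 2 lay above array 1 in each. The G1 cyclin Ccnd1 was at -1.40 and -0.43 on the control arrays and 1.60 and 2.33 on the CDAHFD arrays (2.85 ± 0.34). Of 26 DNA replication genes 13 were higher and 3 lower (median 0.63), with the helicase subunits Mcm2, Mcm5 and Mcm6 at 1.84 ± 0.38, 2.19 ± 0.38 and 1.79 ± 0.32 and the clamp Pcna at 0.57 ± 0.15. Rrm2, the reductase subunit that makes deoxynucleotides, was not called, with CDAHFD arrays at -2.31 and -0.19 and controls at -2.12 and -1.83 (adjusted p = 0.387). Tk1 (-1.06 ± 0.13) and Mcm10 (-0.97 ± 0.18) were lower, against the direction of the list.

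The promoters of cell cycle genes often held letters in common too. TTTGAA on either strand, the core of the cell cycle homology region (CHR) bound by the DREAM repressor complex in resting cells, was in the promoters of 14 of the 23 cell cycle genes that had one (60.9%), against 14.9% of all genes tested and 16% of all genes called higher, and in 12 of the 19 called higher. CCAAT was in 18 of the 23 (78.3%). TTTGAA was in 2 of 20 DNA replication genes (10%), while TTTCGCGC, an E2F site, was in 4 of those 20 (20%), against 0.706% of all genes tested. Among them are the promoters below, shown with TTTGAA in capitals: that of Mki67, at chr7:135716330-135716629 on the minus strand, with matches that begin 116 and 98 bases before the start, and that of Ccnb2, at chr9:70421505-70421804 on the minus strand, with matches that begin 167 bases before and 4 bases after it.
Mki67: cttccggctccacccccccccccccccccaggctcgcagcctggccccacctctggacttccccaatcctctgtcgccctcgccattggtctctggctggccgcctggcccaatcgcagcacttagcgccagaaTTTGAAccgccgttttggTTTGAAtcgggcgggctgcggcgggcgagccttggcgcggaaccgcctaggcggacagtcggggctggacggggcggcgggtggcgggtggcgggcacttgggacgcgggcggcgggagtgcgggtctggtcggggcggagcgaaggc
Ccnb2: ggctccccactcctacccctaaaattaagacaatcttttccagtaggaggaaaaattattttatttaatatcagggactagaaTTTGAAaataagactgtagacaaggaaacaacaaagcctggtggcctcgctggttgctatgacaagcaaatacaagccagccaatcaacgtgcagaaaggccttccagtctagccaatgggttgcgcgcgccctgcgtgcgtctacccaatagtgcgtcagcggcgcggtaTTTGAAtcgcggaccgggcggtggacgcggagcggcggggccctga

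The spread between the 2 CDAHFD arrays of 6 weeks was wider than that between the controls and was large in a few pathways. The SD over genes of array 2 minus array 1 was 0.49 for CDAHFD and 0.36 for control, and 653 genes (4.70%) differed at least 2-fold between the CDAHFD arrays, against 336 (2.42%) between the controls. Neither array had the larger response over the genes that rose: of the 2098 genes called at least 2-fold higher, 1045 were higher on array 2 (49.8%), and their median difference was 1.87 on array 1 and 1.94 on array 2. With 2 arrays no test of an outlying array was possible, and the arrays' differences are given as values. Cell cycle genes had a median of 1.72 on array 1 and 3.12 on array 2, and 29 of 30 were higher on array 2; the control pair differed by 0.15. DNA replication genes had medians of 0.44 and 0.98, with 23 of 26 higher on array 2. Lipogenesis (-1.18 and -0.54) and cholesterol synthesis (-1.26 and -0.77) were lower on array 1, although the cholesterol genes also differed between the controls, by 0.35 against 0.54 between the CDAHFD arrays.

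Fatty acid oxidation genes were higher on array 1. None of its 36 measured genes was higher on array 2, and the list's median was 0.32 on array 1 and -0.59 on array 2, so its overall median of -0.11 (5 higher, 7 lower) joins arrays of opposite sign. The control pair differed by -0.18. Cpt1a, which admits fatty acids to mitochondria, was at 2.55 and 2.58 on the control arrays and 3.71 and 2.93 on the CDAHFD arrays (0.72 ± 0.21, adjusted p = 0.0142). The coactivator Ppargc1a rose on both arrays (1.87 ± 0.33). By gap between the CDAHFD arrays, among genes above background on both, the leading ones higher on array 1 included the acyl-CoA thioesterases Acot3 (-0.86 and -4.73), Acot1 (1.68 and -1.48) and Acot2 (-1.55 and -4.13), the fatty acid hydroxylases Cyp4a10 (4.65 and 2.06) and Cyp4a31 (4.54 and 1.70), the kinase Pdk4, which limits glucose oxidation (1.38 and -2.28), and Lingo4 (-3.47 and -6.23). Acot genes, and Cyp4a genes, are close relatives in sequence, so their probes may not give separate readings. The control values of Acot1 (0.28 and 0.10) lay between the 2 CDAHFD arrays, and its difference of -0.12 therefore describes neither array. Among genes above background on both CDAHFD arrays, the leading 8 higher on array 2 were Scd1, given above, the mitotic kinase Pbk (-6.09 and -3.52) and the mitotic factor Sapcd2 (-6.24 and -3.83), the transcription factors Bhlha15 (-6.12 and -2.49) and Mycn (-6.54 and -3.23), the noncoding RNA Mirg (-4.09 and -1.08), the calcium pump Atp2b2 (-6.08 and -3.59) and the transcript DXBay18 (-6.36 and -3.46). Lipid-associated macrophage genes had medians of 3.02 and 2.80, and 8 of 25 were higher on array 2. Monocyte and macrophage genes had medians of 2.61 and 2.45, with 6 of 30 higher on array 2, and a median gap of -0.28, against 0.27 between the controls. Collagen chains had medians of 1.53 and 1.73, with 17 of 20 higher on array 2. Of 26 T and NK cell genes 2 were higher on array 2 (medians 1.53 and 1.18).

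**Figure D3:**
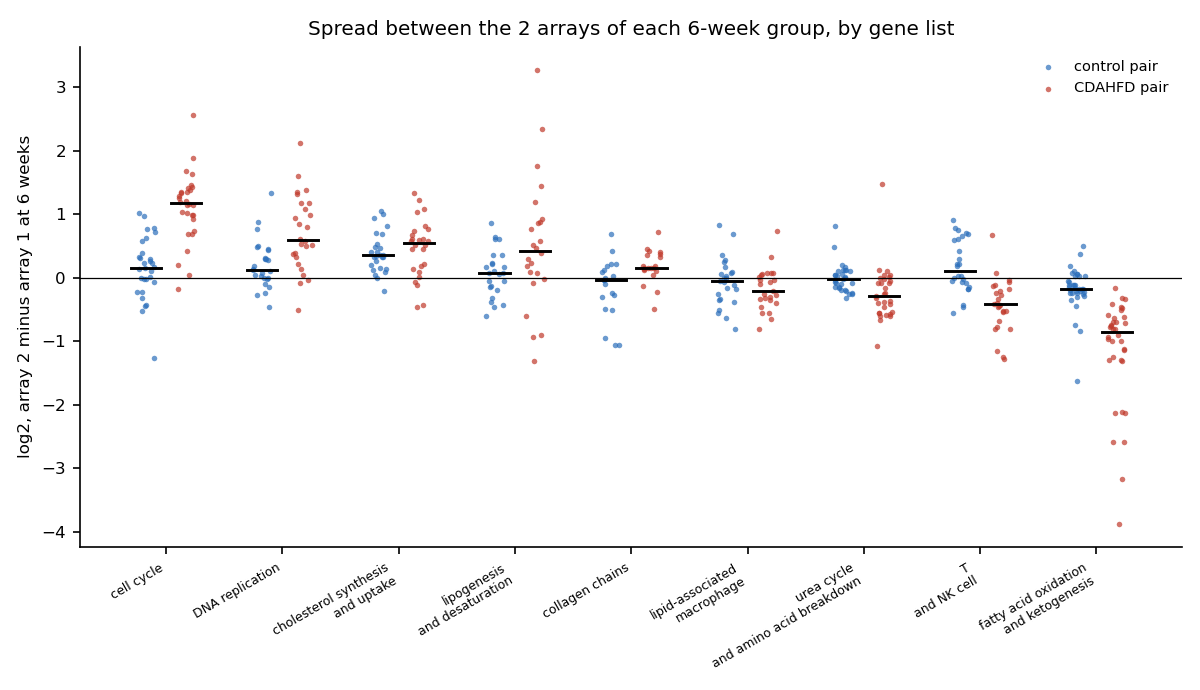
Each point is a gene of 1 of 9 lists, placed by the log2 value of array 2 minus array 1 for the 2 control arrays (blue) and the 2 CDAHFD arrays (red) of 6 weeks; black lines are medians over the list. Cell cycle genes lie above 0 in the CDAHFD pair (median 1.17) and fatty acid oxidation genes below 0 (median -0.86), while the median of collagen chains is 0.16.

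Most of the response at 6 weeks was already present at 2 weeks. Of the genes called at 6 weeks, 4233 were called in the same direction at 2 weeks (74.8% of the calls at 6 weeks and 80.5% of those at 2 weeks), none in the opposite direction, and the median ratio of their differences was 1.05. No gene's difference at 6 weeks was distinguishable from that at 2 weeks after adjustment (limma, smallest adjusted p 0.153), although 830 genes (5.97%) had an unadjusted p under 0.05, 476 of them with the larger value at 6 weeks. Among lists whose medians differed between these times were mesothelial genes, from -0.23 to 1.24, matrix proteases, from 1.35 to 2.16, cholesterol synthesis, from -0.36 to -1.03, interferon-induced genes, from 1.29 to 0.67, cholangiocyte genes, from 0.67 to 1.24, and sinusoidal genes, from -0.11 to -0.53; none of these shifts was tested, and the time points lie on different slides. In calls, cholesterol genes went from 7 of 26 lower at 2 weeks to 17 at 6 weeks, and sinusoidal genes from 2 of 20 to 10. Cholangiocyte genes went from 7 of 20 higher to 14. Of all genes, 22.9% were called higher and 14.9% lower at 2 weeks, against 24.5% and 16.2% at 6 weeks. Whether the counts of these lists changed was not tested.

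Against the mean of the 1- and 2-week differences, 31 genes were called (0.223%), 22 with a more positive and 9 with a more negative difference at 6 weeks. The difference of Dct was -3.11, -2.59 and -6.70 at 1, 2 and 6 weeks and that of Slco1a1 -0.56, -1.93 and -3.45. For Cd163, with earlier differences of 0.14 and -0.35, the fall at 6 weeks has only the bound of at least 1.45-fold, so the size of its change with time was not measured. Among the rising genes, H19 had fitted differences of 3.12, 3.73 and 7.15, the last against controls not above background (at least 74.2-fold), Trem2 of 4.64, 6.34 and 7.43, Timp2 of 0.45, 1.12 and 2.04, and S100a6 of 1.53, 2.47 and 3.23. For Cyp3a11 the fall shrank, from -2.48 and -1.97 to -0.87. Hsd3b5, the largest fall at 6 weeks, had -1.63 and -4.23 at the earlier times, and its change with time was not called (adjusted p = 0.138). Over all genes, 20 were above background on both CDAHFD arrays of 6 weeks and on none of the other 10 arrays. Among them were Sctr, the monocyte chemokine Ccl12, the neuropeptide gene Npy and the granulocyte enzyme Mpo. These 20 passed the filter only through those 2 arrays, so they could enter only as higher. The bounds at 6 weeks were 1.68-fold for Sctr, 1.43-fold for Ccl12, 1.94-fold for Npy and 1.56-fold for Mpo. Foxj1 and Olfml2b, also among the 20, were not called. The reverse held for 14 genes, below background on both CDAHFD arrays of 6 weeks and above it on the other 10.

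**Figure D4:**
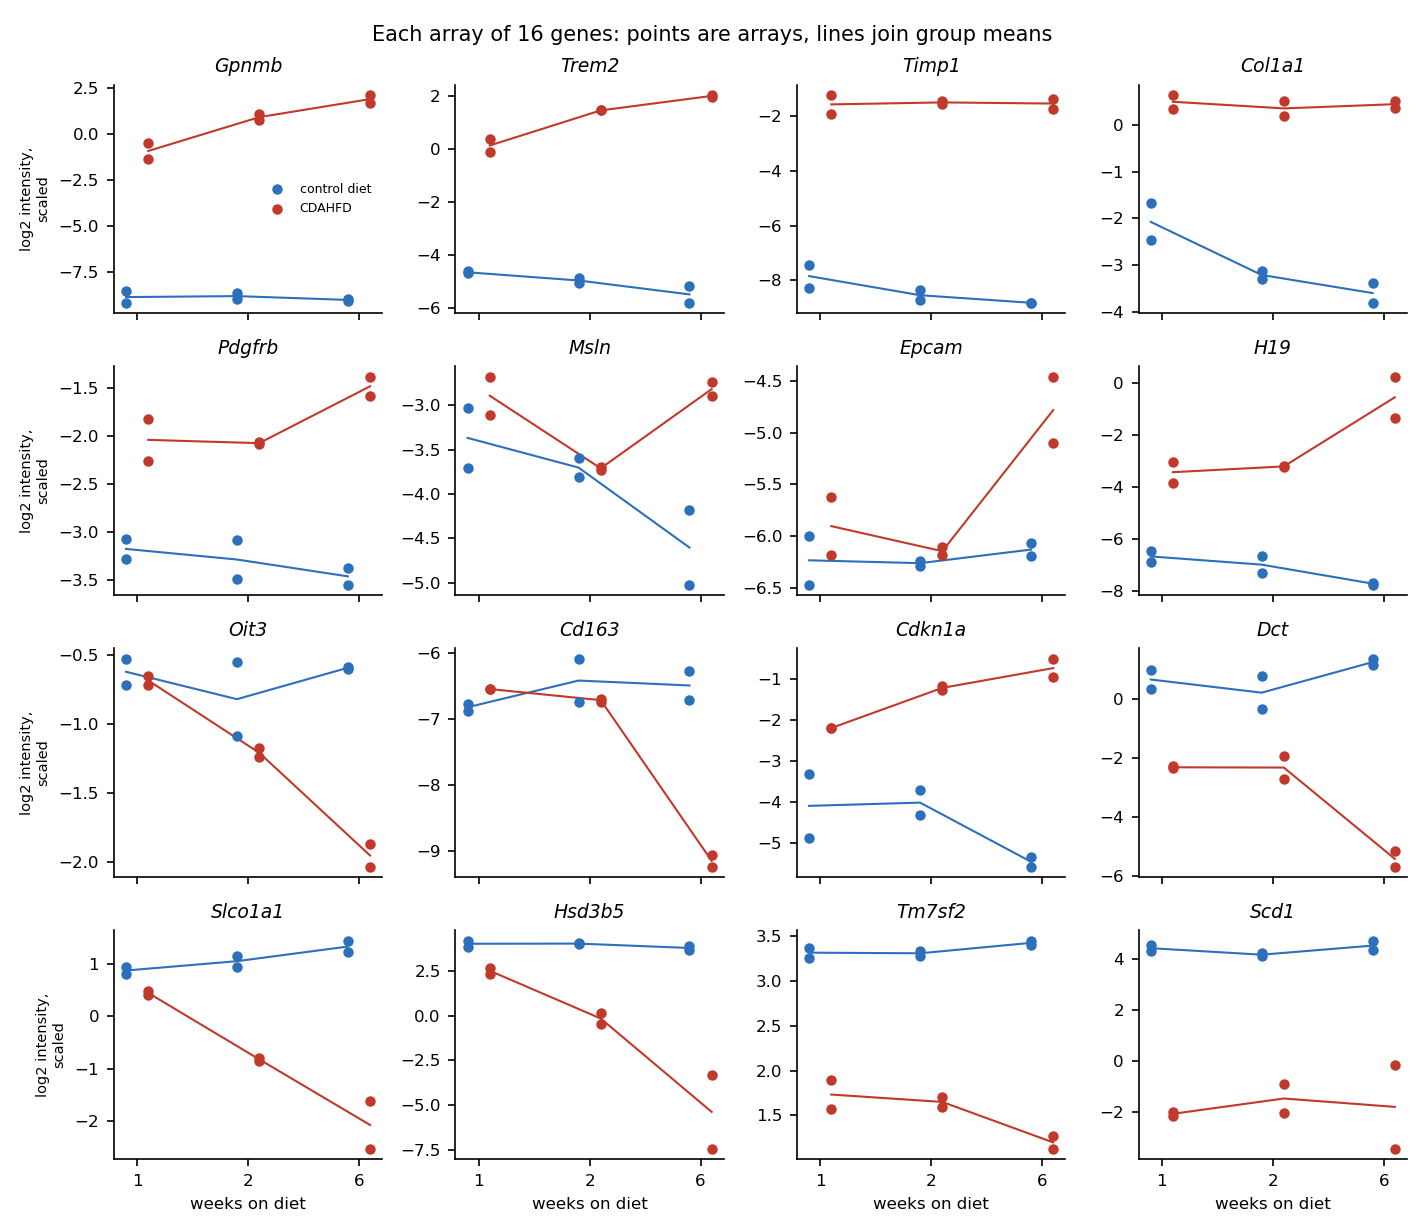
Log2 intensity relative to the 75th percentile of each array for 16 genes at 1, 2 and 6 weeks; blue points are control arrays, red points CDAHFD arrays and lines join group means, with vertical scales that differ between panels. The 2 arrays of a diet lie close for Gpnmb, Trem2, Col1a1 and Tm7sf2 at 6 weeks, whereas those of Hsd3b5 (-7.42 and -3.32) and Scd1 (-3.43 and -0.16) lie far apart, and Msln, Epcam, Oit3 and Dct have a larger difference between diets at 6 weeks (1.75, 1.31, -1.40 and -6.70) than at 2 weeks (-0.06, 0.06, -0.44 and -2.59), of which no change from 2 weeks was called.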

How the data were processed

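The 4 arrays of 6 weeks are described, and all 12 arrays (6 groups of 2) entered 1 limma fit, so that all groups share an estimate of spread with 6 residual degrees of freedom. The values are intensities, gProcessedSignal, which the authors' scanner software had background-subtracted, per the file headers (Agilent Feature Extraction 11.5.1.1; the submitters' processing notes name 10.7). Of 62976 spots an array, 59305 were gene spots of 55681 probes. From the deposited intensities, log2 values were taken (Python 3.11.15, R 4.3.3, limma 3.58.1), each array's 75th percentile over probes above background on all arrays was subtracted, spots of a probe were averaged without outlier spots, and a probe was kept where some group had both its arrays well above background. RefSeq accessions named 28664 probes with 21613 symbols; each gene is read by its brightest probe, leaving 13898 genes, of which 3616 had other probes, and 26 called genes had another probe called the opposite way. The test was limma's with trend and robust variance, with Benjamini-Hochberg adjustment over all genes, and it was tested on simulated data.

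The list members, the lists and the promoter motifs were chosen with earlier results of these data known. Named genes are those called with the 12 largest rises and the 12 largest falls without unnamed clones, the first 3 measured members of each list with up to 4 more by smallest adjusted p, and, each way, the 8 genes furthest apart on the CDAHFD arrays among those above background on both. The rule's further part, genes called for 6 against 2 weeks, named none. Genes outside it are named in the promoter, time and control sentences and were chosen after their values were seen. Where a gene was not well above background on both arrays of a group, "at least" marks a lower bound on its fold, taken against the lowest signal above background on each array. Replicate numbers were not used to pair the arrays in the main fit. The correlation of same-numbered arrays' deviations was -0.05, 0.18 and 0.11 at 1, 2 and 6 weeks. With 2 arrays a group these values cannot settle whether the numbers pair the arrays. The alternatives were other scalings, normexp, filters, probe summaries, fits and leaving out each array. A few genes chosen this way are not reported here. The number of arrays limits the precision.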

Additional observations from a re-analysis of the deposited data

Results flagged for a closer look

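For 10 of the genes named above, the diet difference at 6 weeks differed from the mean of those at 1 and 2 weeks by limma's test of that difference (adjusted p under 0.05 over all genes, 31 called). The shift was 3.68 for H19 (adjusted p = 0.0462), 1.90 for Trem2 (adjusted p = 0.03), 1.35 for Capg, 1.31 for Cyp3a11, 1.22 for Timp2 and 1.20 for S100a6. It was -2.24 for Slco1a1, -2.39 for Acsm2, -2.62 for Cd163 and -3.89 for Dct (adjusted p = 0.036). H19 was not above background in the 6-week controls, nor Acsm2 and Cd163 on the 6-week CDAHFD arrays, so their shifts are fitted values whose size was not measured: the differences at 6 weeks were at least 74.2-fold, 5.06-fold and 1.45-fold. The arrays of 6 weeks lay on their own slide, so slide and week cannot be told apart in these shifts, and none of the 10 was called for 6 against 2 weeks alone.

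The 27017 probes without a gene name here entered no comparison. Of these, 547 were well above background on both CDAHFD arrays of 6 weeks and on neither control, and 141 the reverse. Among the 13898 named genes that passed the filter these counts were 738 and 94, so named genes were lopsided in the same direction.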

How the results depend on the processing

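Under the alternatives the 5657 calls (3404 higher, 2253 lower) moved as follows. Median centring left 1304 lower, the 75th percentile over all probes gave 4235 lower and 2606 higher (38.1% of calls higher, against 60.2%), normexp gave 3765 called with 2005 higher, and asking for 2-fold gave 2766 called with 2098 higher and 668 lower. Leaving out 1 array gave 3972 to 5758 called, 2636 to 3504 higher and 1336 to 2286 lower, with 1336 without control replicate 1 and 1494 without control replicate 2 of 6 weeks. For 6 against 2 weeks, no gene was called, 1 with median centring, 31 against the mean of 1 and 2 weeks, and 0 to 11 with 1 array left out (11 without CDAHFD replicate 2 and 4 without CDAHFD replicate 1 of 6 weeks). With the replicate block 5513 genes were called (3321 higher, 2192 lower), 5236 of them shared, and none for 6 against 2 weeks. Reversed were the medians of lipoproteins (0.0036 with quantile normalization), exocrine pancreas and gut (-0.079 without the filter), neutrophil (-0.28), mast cell (0.44) and adipocyte genes (0.46, over genes above background on all arrays), and Actb (0.38 with quantile normalization), Sctr (-0.28 without the filter) and Acot1 (1.47 without CDAHFD replicate 2 and -1.74 without replicate 1). Among the genes named here, 297 were followed under the alternatives. Of these, 22 lost their call with normexp and 8 with the 6-week arrays alone. Without control replicates 1 and 2 of 6 weeks 17 and 14 lost their call, and without CDAHFD replicates 1 and 2, 12 and 8. Fn1, Nkg7, Pecam1 and Apob, with adjusted p over 0.03, lost it most often. Rrm2 gained a call without CDAHFD replicate 1, and Fasn and Pdk4 without replicate 2. The causes were not tested. Dim genes are limited by background, 687 called genes having only a bound.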

Other observations

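Gene families grouped by symbol, some of whose members are named above, add to the description at 6 weeks. Their background is again 24.5% of genes called higher and 16.2% called lower. Annexins, calcium-dependent membrane-binding proteins, were higher in 9 of 11 cases and lower in none (median 1.24), against 0.72 at 2 weeks. Among TRIM proteins, a family of ubiquitin ligases, 16 of 38 were higher and 1 lower (median 0.44). Subunits of the vacuolar proton pump, which acidifies lysosomes, were higher in 9 of 18 cases and lower in none (median 0.31).

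Mitochondrial ribosomal and proteasome genes were more often lower. Of 78 mitochondrial ribosomal proteins 27 were lower and 2 higher (median -0.25), whereas of 81 cytosolic ribosomal proteins 4 were lower and 9 higher (median -0.03). Of 48 proteasome genes 20 were lower and 4 higher (median -0.35); Psmb8 and Psmb10, catalytic subunits of the interferon-inducible immunoproteasome, were among the higher ones and are named after their values were seen. UDP-glucuronosyltransferases were lower in 12 of 14 cases (median -1.05) and major urinary proteins in 9 of 11 (median -0.84), with near-identical copies in both families. Relative to the median gene, each of these families except cytosolic ribosomal proteins kept the sign of its median with quantile normalization and normexp. Cytosolic ribosomal proteins turned to 0.26 with quantile normalization and 0.11 with normexp. Median centring and scaling to all probes shift each array by a constant, so they cannot change a median relative to the median gene.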
